A study of Mus musculus with 22 samples.

Results

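Toll-like receptors are the genes described here: the 10 gene symbols Tlr1, Tlr2, Tlr3, Tlr4, Tlr5, Tlr6, Tlr7, Tlr8, Tlr9 and Tlr13, taken by name from 24982 genes counted in eosinophils of the mouse bone marrow. All 10 symbols were listed in the files, and 5 of the 10 (Tlr1, Tlr2, Tlr4, Tlr6 and Tlr13) had enough counts to enter the test. The cells came from wild-type C57BL/6 mice, all of which received 400 ng of IL-33 a day for 7 days by the intraperitoneal route, and no group is without this cytokine, which is known to expand eosinophils. From the last IL-33 injection on, mice also received 3 daily injections of 400 µg of an antibody, which was either anti-IL5, against the main growth factor of eosinophils, or a control isotype. Marrow was first depleted of cells bearing Ly6G, CD90.2, NK1.1 or CD45R, and maturation stages I, II, III and IV were then sorted by their surface proteins to a purity of at least 95%. There were 11 libraries per antibody, with 3 per stage and 2 at stage II. Age, sex and the number of animals behind each library were not given in the labels. Since the labels do not say whether libraries came from separate animals, every p-value measures the spread between these libraries, which may be technical.

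Toll-like receptors are membrane receptors that recognise molecules of microbes and pass the signal on through cytoplasmic adaptors such as MyD88. One branch sits on the cell surface: TLR2, in pairs with TLR1 or TLR6, binds bacterial lipoproteins, TLR4 binds lipopolysaccharide with its partner MD-2, and TLR5 binds flagellin. The other branch works in endosomes and needs the chaperone UNC93B1: TLR3 binds double-stranded RNA, TLR7 and TLR8 bind single-stranded RNA, TLR9 binds DNA with unmethylated CpG, and TLR13, which rodents have and humans lack, binds bacterial ribosomal RNA.

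The receptor that carried most of the results, Tlr13, lies on the plus strand of the X chromosome (GRCm38, 106143204 to 106160493, with 3 exons). Tlr6 and Tlr1 are neighbours on the minus strand of chromosome 5, at 64952031 to 64960097 and 64924679 to 64933563. The 250 bases before the RefSeq start sites of these 3 genes are given because Tlr13 and Tlr6 moved together along maturation while Tlr1, next to Tlr6, did not follow them. All were read from the RefSeq promoter table (GRCm38.p6), 5′ to 3′ on the strand of the gene. They are Tlr13 (chrX:106143025-106143274, plus strand), Tlr6 from its inner start (chr5:64959167-64959416, minus strand) and its outer start (chr5:64960049-64960298, minus strand), and Tlr1 from its outer start (chr5:64933559-64933808, minus strand). The inner start of Tlr1 (chr5:64932700-64932949, minus strand) is not printed and held none of the words searched.
Tlr13: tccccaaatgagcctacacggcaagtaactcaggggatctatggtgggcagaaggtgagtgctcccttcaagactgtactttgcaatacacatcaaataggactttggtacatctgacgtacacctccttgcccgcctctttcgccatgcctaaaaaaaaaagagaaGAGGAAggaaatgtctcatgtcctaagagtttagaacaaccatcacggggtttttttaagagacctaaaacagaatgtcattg
Tlr6 inner start: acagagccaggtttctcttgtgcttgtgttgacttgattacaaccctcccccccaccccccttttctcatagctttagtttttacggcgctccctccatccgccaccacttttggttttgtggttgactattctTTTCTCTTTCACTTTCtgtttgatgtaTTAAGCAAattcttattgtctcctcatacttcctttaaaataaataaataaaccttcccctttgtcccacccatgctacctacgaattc
Tlr6 outer start: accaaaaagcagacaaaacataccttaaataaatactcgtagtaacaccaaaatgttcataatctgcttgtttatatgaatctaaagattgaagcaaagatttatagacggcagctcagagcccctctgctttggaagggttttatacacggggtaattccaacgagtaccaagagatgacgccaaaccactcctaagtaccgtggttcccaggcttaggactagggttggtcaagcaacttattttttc
Tlr1 outer start: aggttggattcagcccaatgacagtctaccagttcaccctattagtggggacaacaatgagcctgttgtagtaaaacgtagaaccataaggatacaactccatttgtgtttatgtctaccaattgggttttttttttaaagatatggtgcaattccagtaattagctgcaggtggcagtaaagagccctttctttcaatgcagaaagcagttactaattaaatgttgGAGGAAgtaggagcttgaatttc
Capitals mark matches, on either strand, to 4 words bound by factors of myeloid cells: GAGGAA (the core that PU.1 binds), AGATAA (the word of the GATA family), TTNNGCAA (C/EBP factors) and the word GAAA repeated after a gap of 2 bases (interferon regulatory factors), called the double GAAA word. The Tlr13 stretch held 1 GAGGAA, starting 83 bases before the start site, and the Tlr1 stretch held 1, starting 23 bases before it. The inner Tlr6 stretch held 2 overlapping copies of the double GAAA word on the opposite strand, starting 116 and 110 bases before the start site, and 1 TTNNGCAA at 89 bases, and the outer Tlr6 stretch held none of the 4 words. Among 32851 promoter stretches of the same length, 23.3% held GAGGAA, 9.99% AGATAA, 9.56% TTNNGCAA and 2.98% the double GAAA word. A match is a match of letters only. Of the 10 receptors, 8 had an entry in the table, and Tlr4 and Tlr7 are named without a sequence.

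Libraries held 7161264 to 14781250 counts assigned to genes, and the genes seen with at least 1 count per library numbered 12359 to 13829. Levels are given as CPM, a library's counts scaled to a common total that was itself adjusted by edgeR's TMM factors. At these depths 3 counts, the floor used for a gene at 0, equal 0.222 to 0.411 CPM in a library. The libraries had no molecular barcodes named, so floors and counting intervals cover counting error only. The 10 eosinophil markers examined (among them Epx, Prg2, Siglecf and Il5ra) were all present in every group, with a summed level of 42591 to 68167 CPM at stages I, II and III of the isotype libraries and 9165 to 12116 CPM in all stage IV libraries. Under anti-IL5 the sum was 41764 to 54329 CPM at stages I and II and 26601 to 31922 CPM at stage III, against 42591 to 49551 CPM in isotype libraries of stage III. The sums hide markers that went the other way. From stage I to IV, 4 of the 10 were higher and 6 lower under either antibody (edgeR, adjusted p under 0.05). By the same test 66.2% of all genes differed in isotype libraries and 63.5% under anti-IL5. In sorted bulk samples, fewer cells that express a gene and less RNA per cell cannot be told apart.

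Different patterns of level were seen among the receptors. Tlr13 rose from near 0 at stage I to the highest level of any Toll-like receptor at stage IV, Tlr4 and Tlr6 rose with it to lower levels, and Tlr1 and Tlr2 stayed low and, in the isotype libraries, were lower at stage IV than at stage I. The other 5 receptors were at or near 0 counts. Per kb of exon, Tlr13 at stage IV reached 64.3 ± 5.24 CPM per kb (SD, n = 3) in isotype libraries and 62.1 ± 8.86 (SD, n = 3) under anti-IL5. On the same scale in the stage IV isotype libraries, Tlr4 had 6.78 ± 2 CPM per kb and Tlr6 had 4.48 ± 2.12 (SD, n = 3 each), and the libraries of these neighbours in the order overlapped. Tlr2 followed with 0.333 ± 0.142 CPM per kb and Tlr1 with 0.0615 ± 0.0277 (SD, n = 3 each), and neither overlapped its neighbours. At stage I the order was different: the highest mean was that of Tlr2, with 1.57 ± 0.563 CPM per kb in isotype libraries (SD, n = 3), and Tlr13 had 0.127 ± 0.221 (SD, n = 3). The Tlr2 libraries at stage I (1.04 to 2.16 CPM per kb) overlapped those of Tlr6 (0.256 to 1.22) and Tlr1 (0.426 to 1.24).

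**Figure D1:**
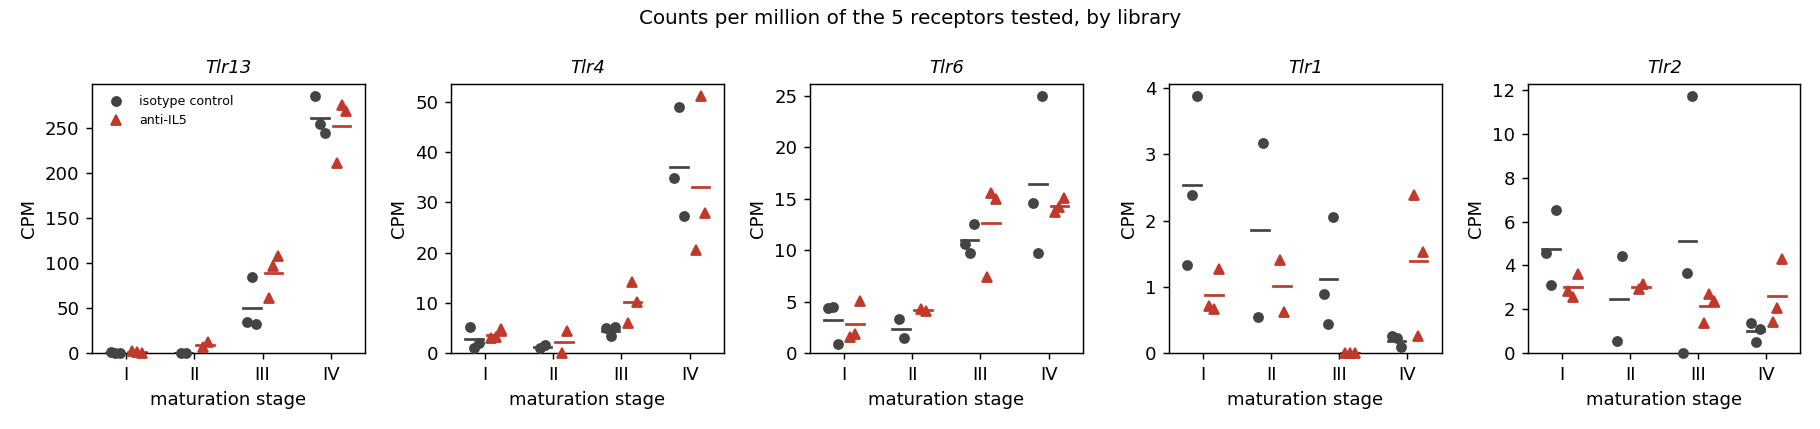
CPM (y axis, own scale in each panel) of Tlr13, Tlr4, Tlr6, Tlr1 and Tlr2 by maturation stage (x axis). Each circle is an isotype library, each triangle an anti-IL5 library and each short line a group mean. Tlr13 sits at 211 to 285 CPM in all 6 stage IV libraries, and the 3 anti-IL5 libraries of stage III have Tlr1 at 0.

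**Figure D2:**
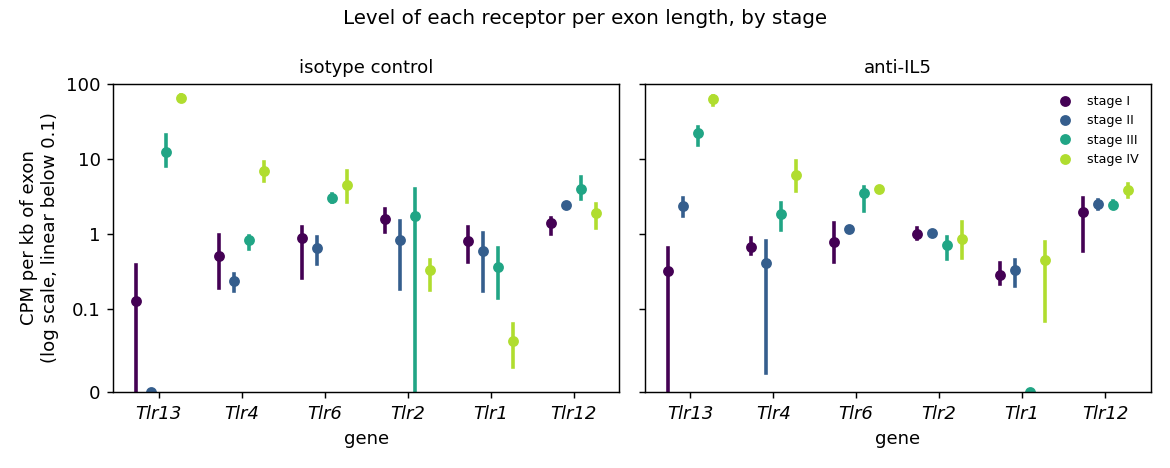
CPM per kb of exon (y axis, log scale that is linear below 0.1) of the 5 receptors tested and of Tlr12 (x axis), with isotype libraries on the left and anti-IL5 on the right. Points are group means, lines run from the lowest to the highest library, and colours are stages. Tlr13 has the lowest mean of the 5 receptors at stage I in isotype libraries (0.127) and the highest at stage IV (64.3).

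The design asks first how the receptors change along maturation, tested with edgeR's quasi-likelihood test over 12387 genes with a call meaning a p under 0.05 after Benjamini-Hochberg adjustment. From stage I to stage IV in isotype libraries, 3 of the 5 receptors tested were higher (Tlr4, Tlr6 and Tlr13) and 2 were lower (Tlr1 and Tlr2), where 66.2% of all genes tested were called (32.3% higher and 33.9% lower). Under anti-IL5 the same 3 were higher and none was lower, where 63.5% of all genes were called (30.7% higher and 32.8% lower). The median log2 fold change of the 5 was 2.33 in isotype and 2.32 in anti-IL5 libraries, beside medians over all genes of -0.04 and -0.06. With most genes called, a count of this size is not particular to the receptors.

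Step by step, most calls came from stage II on. From stage I to II, 0 receptors were called in isotype libraries (10.6% of all genes called, and 0 receptors at an unadjusted p under 0.05 or by limma-voom or DESeq2) and 1, Tlr13, under anti-IL5 (12.4% of all genes, 7.27% higher and 5.16% lower). From stage II to III, Tlr6 and Tlr13 were higher in isotype libraries (37.1% of all genes called, 19% higher and 18.1% lower). Under anti-IL5, Tlr4, Tlr6 and Tlr13 were higher at this step and Tlr1 was lower (39.5% of all genes called, 19.8% higher and 19.7% lower). From stage III to IV, Tlr4 and Tlr13 were higher and Tlr2 lower in isotype libraries (33.6% of all genes called, 14.8% higher and 18.8% lower), and Tlr1, Tlr4 and Tlr13 were higher under anti-IL5 (23.8% of all genes called, 10.4% higher and 13.4% lower). Steps that share a stage share its libraries, so neighbouring steps are not independent.

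**Figure D3:**
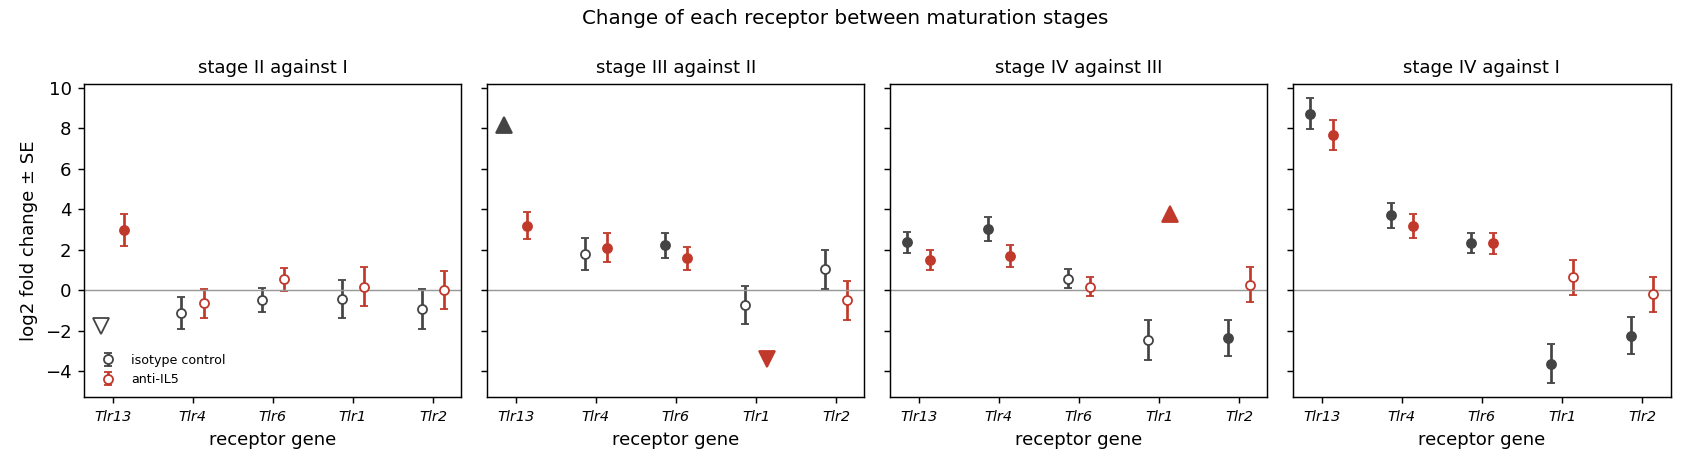
Log2 fold change between stages (y axis) of the 5 receptors tested (x axis), isotype in grey and anti-IL5 in red. Circles carry ± 1 SE and are filled where the adjusted p is under 0.05. Large triangles stand where 1 group had 0 counts and mark the fold against 3 counts set over that group. Tlr13 has the tallest rise from stage I to IV, at 8.73 and 7.68.

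The comparison of antibodies asks whether neutralising IL-5 changes the receptors at a given stage. At stage I 0 of the 5 receptors were called (4.42% of all genes tested were), also at an unadjusted p under 0.05, by limma-voom and by DESeq2. At stage II 1 was called, Tlr13, which was higher under anti-IL5 (1.75% of all genes called, 0.565% higher and 1.19% lower). At stage III 1 was called, Tlr1, which was lower (6.37% of all genes called, 1.32% higher and 5.05% lower). At stage IV 0 were called (1.05% of all genes), with 1, Tlr1, at an unadjusted p under 0.05 and 0 by limma-voom and DESeq2. Averaged over the stages 1 was called, Tlr13 (18.9% of all genes called, 8.6% higher and 10.3% lower). In tests of whether the antibody effect differs between stages, 0 receptors were called for stage III against stage I (0.396% of all genes called, Tlr1 at an unadjusted p under 0.05, 0 by limma-voom and DESeq2) and 1, Tlr1, for stage IV against stage III (0.638% of all genes, 0.541% higher and 0.0969% lower). Over all stages together the interaction called Tlr1 alone (1.07% of all genes).

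Tlr13, the receptor for bacterial ribosomal RNA, was absent or near absent in early stages of isotype libraries and abundant in late ones. Its levels in isotype libraries were 1.55, 0 and 0 CPM at stage I, 0 and 0 at stage II, 34.7, 84.2 and 32.4 at stage III, and 285, 254 and 244 at stage IV. No library of stage III or IV overlapped one of an earlier stage. Under anti-IL5 they were 2.6, 1.24 and 0 CPM at stage I, 7 and 12.1 at stage II, 61.1, 96.9 and 108 at stage III, and 211, 276 and 269 at stage IV. Here too each stage from II on lay above the one before without overlap. Tlr13 rose between stages I and IV by 8.73 ± 0.78 on the log2 scale (SE) in isotype libraries (adjusted p = 2.64e-08, edgeR) and by 7.68 ± 0.73 under anti-IL5 (adjusted p = 7.36e-08). These folds are measured from 21 and 35 counts in all at stage I. All 21 lay in isotype replicate 1, without which stage I is at 0 and the fold has no finite value (adjusted p = 1.72e-08). Under anti-IL5 the rise was 8.63 without replicate 1 of stage I and 7.06 without replicate 3.

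The steps of Tlr13 were these. In isotype libraries the rise came between stages II and III. It was 289-fold against 3 counts set over the stage II group (adjusted p = 2.85e-05, edgeR), and the 95% Poisson counting interval of the fold began at 235. The rise went on to stage IV by 2.37 ± 0.52 on the log2 scale (adjusted p = 0.00195, 0.0605 by DESeq2, and a rise of 2.96 without stage III replicate 2). Under anti-IL5 Tlr13 rose from stage II to III by 3.20 ± 0.66 (adjusted p = 0.000985). It was also called higher there from stage I to II, by 2.97 ± 0.78 (adjusted p = 0.0181), and from stage III to IV, by 1.51 ± 0.50 (adjusted p = 0.0378). The first of these calls was lost when anti-IL5 replicate 2 or 3 of stage I or replicate 1 or 2 of stage II was left out (adjusted p of 0.054 to 0.126), by DESeq2 (0.0796) and with only the groups compared (0.0557). Without stage I replicate 1 that rise was 3.92, and without replicate 3 it was 2.36. The call from stage III to IV was lost without any 1 of its 6 libraries (0.0539 to 0.142), by DESeq2 (0.311) and without a filter (0.0912).

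Between the antibodies, Tlr13 was called at stage II. Both isotype libraries had 0 counts, while the anti-IL5 libraries had 55 and 116, or 7 and 12.1 CPM. Against 3 counts set over the isotype group, Tlr13 was 52.9-fold higher under anti-IL5 at this stage (adjusted p = 0.0236, edgeR, n = 2 against 2). The 95% Poisson counting interval of the fold began at 42.5. The call was lost when any 1 of the 4 libraries was left out (adjusted p of 0.0608 to 0.165), by limma-voom (0.107), without a filter (0.055), and when only these 4 libraries were fitted (0.149), and it held by DESeq2 (0.000682). At stage III the anti-IL5 libraries had the higher mean with overlapping libraries, a difference of 0.81 ± 0.50 on the log2 scale (adjusted p = 0.378). Stages I and IV gave 1.00 ± 1.03 (adjusted p = 0.681) and -0.05 ± 0.49 (adjusted p = 1), both with overlap. Averaged over the stages the difference was called (adjusted p = 0.00625, and 0.000491 without isotype replicate 1 of stage I), and over stages I, III and IV alone it was 0.59 with an adjusted p of 0.4. The test of a different antibody effect on Tlr13 over the stages did not reach a call in edgeR (adjusted p = 0.149), and DESeq2 called it.

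Neutrophils and monocytes also express Tlr13, and markers of both were present in the sorted cells. The 10 mature neutrophil markers (such as Ltf, Ngp and Mmp8), none of them at 0 in any group, summed to 3166 to 4389 CPM at stage II in isotype libraries and 5211 to 5299 under anti-IL5. Of the 10, 0 were called between the antibodies at that stage (1.75% of all genes). Averaged over the stages, where Tlr13 was called higher under anti-IL5, 5 of the 10 were also called higher and 0 lower (8.6% and 10.3% of all genes). From stage II to III in isotype libraries the sum went to 4851 to 7787 CPM, with 4 of 10 called higher and 2 lower (19% and 18.1% of all genes). At this step Tlr13 went from 0 counts to 32.4 to 84.2 CPM. From stage III to IV the sum went to 1426 to 1821 CPM, with 1 higher and 5 lower (14.8% and 18.8% of all genes), while Tlr13 rose again. The 10 monocyte and macrophage markers (such as Csf1r, Ccr2 and Ly6c2) summed to 1438 to 1564 CPM and 1263 to 1439 CPM at stage II. Of these 10, 0 were called between the antibodies there (1.75% of all genes) and 1 was higher averaged over the stages (8.6% of all genes). They summed to 1042 to 2066 CPM in stage IV isotype libraries, where Cx3cr1 had 0 counts. The part of such cells in the Tlr13 results was not tested.

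Tlr4, the lipopolysaccharide receptor, rose late. Isotype libraries had 5.25, 1.04 and 1.98 CPM at stage I, 0.958 and 1.58 at stage II, 4.96, 3.41 and 5.17 at stage III, and 34.9, 48.9 and 27.4 at stage IV. Every stage IV library lay above every earlier one. The rise from stage III to IV was 3.04 ± 0.59 on the log2 scale (adjusted p = 0.000384) and that from stage I to IV 3.71 ± 0.61 (adjusted p = 1.62e-05). Under anti-IL5 the libraries had 2.96, 3.14 and 4.87 CPM at stage I, 0.127 and 4.4 at stage II, 6.08, 14.1 and 10.2 at stage III, and 20.5, 51.1 and 27.9 at stage IV. The stage I to IV rise there was 3.17 ± 0.60 (adjusted p = 9.23e-05), and leaving out any 1 library kept both stage I to IV calls, with a rise of 4.60 in isotype libraries without stage I replicate 1.

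From stage II to III the isotype libraries of Tlr4 lay higher without overlap, by 1.79 ± 0.78 on the log2 scale, which was not called by edgeR (adjusted p = 0.0775) and was by DESeq2 (0.0372) and with the replicate block within each treatment (0.0401). Under anti-IL5 Tlr4 rose by 2.11 ± 0.71 at this step (adjusted p = 0.0217) and by 1.71 ± 0.55 from stage III to IV (adjusted p = 0.0283). The stage II to III call rested on stage II replicate 1, which held 1 count: without it the difference was 1.20 (adjusted p = 0.211), and without replicate 2 it was 6.19 (0.000543). It was also lost without stage III replicate 2 (0.0695), without a filter (0.0572), with gene totals alone (0.0549) and with only the groups compared (0.0672). Without stage III replicate 1 or 3 or stage IV replicate 2, the step to stage IV gave adjusted p of 0.0703 to 0.16, and 0.0645 without a filter. At stage III the 3 anti-IL5 libraries lay above the 3 isotype libraries, by 1.17 ± 0.58 on the log2 scale, which did not pass the test (adjusted p = 0.24). Tlr4 gave no call between the antibodies at any stage, and its adjusted p for the interaction was 0.884.

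Tlr6, which pairs with TLR2 to bind diacyl lipopeptides, rose between stages II and III. Its isotype libraries had 4.36, 4.47 and 0.943 CPM at stage I, 3.28 and 1.47 at stage II, 10.6, 9.79 and 12.6 at stage III, and 14.6, 9.77 and 25 at stage IV. Stages III and IV overlapped each other and lay above stages I and II. The step from stage II to III was 2.22 ± 0.61 on the log2 scale (adjusted p = 0.0065, 0.0872 without isotype replicate 2 of stage II, and a rise of 2.91 without replicate 1), and that from stage III to IV was 0.58 ± 0.47 (adjusted p = 0.361). Between stages I and IV Tlr6 rose by 2.33 ± 0.50 (adjusted p = 0.000319).

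Under anti-IL5 Tlr6 had 1.54, 1.9 and 5.06 CPM at stage I, 4.33 and 4.08 at stage II, 7.45, 15.6 and 15 at stage III, and 13.7, 14.2 and 15.1 at stage IV. It rose by 1.59 ± 0.57 from stage II to III (adjusted p = 0.0303), a call lost without either stage II library or without stage III replicate 2 or 3 (adjusted p of 0.0741 to 0.129), with the replicate block within each treatment (0.0731) and with gene totals alone (0.0647). It rose by 2.32 ± 0.51 from stage I to IV (adjusted p = 0.000418, and 3.04 without stage I replicate 3). The antibodies differed in Tlr6 by no more than 0.84 ± 0.65 on the log2 scale at any stage (stage II, adjusted p = 0.639).

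Tlr1, the other partner of TLR2, was low everywhere, with at most 41 counts in a library, and its calls rest on few reads. Isotype libraries had 1.33, 2.39 and 3.87 CPM at stage I, 0.547 and 3.17 at stage II, 0.891, 0.437 and 2.05 at stage III, and 0.255, 0.227 and 0.0936 at stage IV. The stage IV libraries held 3, 3 and 1 counts and lay below all others. Tlr1 fell between stages I and IV by 3.62 ± 0.97 on the log2 scale (adjusted p = 0.00286), a call that held without any 1 of the 6 libraries. Under anti-IL5 the libraries had 0.71, 0.666 and 1.27 CPM at stage I, 1.4 and 0.628 at stage II, 0, 0 and 0 at stage III, and 2.39, 0.267 and 1.53 at stage IV. The gene was thus at 0 counts in 3 of 3 stage III libraries and present in every other anti-IL5 library.

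The antibodies differed in Tlr1 at stage III. With 3 counts set over the anti-IL5 group, the gene was 11.5-fold lower there than in isotype libraries, which held 7, 5 and 19 counts (adjusted p = 0.0108, edgeR). The 95% Poisson counting interval of the fold began at 8.82. The call was lost without isotype replicate 3 (adjusted p = 0.0543) and without anti-IL5 replicate 3 (0.0544). Within the anti-IL5 libraries, by the same measure, stage III was 10.4-fold lower than stage II (counting interval from 7.55, edgeR adjusted p = 0.00267). Stage IV was 13.8-fold higher than stage III (counting interval from 10.7, edgeR adjusted p = 0.00172). At stage IV the difference between antibodies had the opposite sign, 2.75 ± 0.97 on the log2 scale, with no overlap and an adjusted p of 0.277. At stage I the anti-IL5 libraries lay below the isotype libraries without overlap, by -1.50 ± 0.86 (adjusted p = 0.376). The change of the antibody effect from stage III to IV passed the test (adjusted p = 0.016), and was lost by limma-voom (0.083) and when only these 12 libraries were fitted (0.0807).

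Other values bear on the stage III difference in Tlr1. Tlr1 and Tlr6 share 454 stretches of 50 bases, 14.8% of those in Tlr1 and 12.3% of those in Tlr6, so the authors' counting could have split or dropped reads between them, and their counts are uncertain to that extent. Tlr6 at stage III did not differ between the antibodies beyond the spread (0.21 ± 0.47, adjusted p = 0.851). The 8 basophil and mast cell markers summed to 1376 to 2240 CPM in stage III isotype libraries and 684 to 802 CPM under anti-IL5, with 6 of 8 called lower and none at 0. Over all genes 5.05% were called lower at this stage, a share that also stands beside the other lists here. The 7 T and NK cell markers in the files summed to 94 to 234 CPM and 27 to 30.4 CPM, with 1 of 2 tested called lower. Of these 7, only Nkg7 passed 13.1 CPM in any library, and Cd3e, Ncr1, Klrb1c and Gzma were at 0 in the isotype group and Ncr1 in the anti-IL5 group. The 10 eosinophil markers were also lower in sum under anti-IL5 at this stage, with 2 of 10 called lower. Mature neutrophil and monocyte and macrophage markers (10 tested each) had 0 calls there (6.37% of all genes). So did conventional dendritic (7 tested) and plasmacytoid dendritic, B lineage, erythroid and megakaryocyte markers (4 tested each). At stage IV under anti-IL5 the basophil and mast cell markers summed to 237 to 253 CPM, while Tlr1 had 2.39, 0.267 and 1.53 CPM. The part of these values in the Tlr1 result was not tested.

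Tlr2, the shared partner of TLR1 and TLR6, ranged widely within some groups. Isotype libraries had 4.58, 3.12 and 6.51 CPM at stage I, 0.547 and 4.41 at stage II, 0, 3.67 and 11.7 at stage III, and 1.36, 0.53 and 1.12 at stage IV. The stage III libraries spanned the whole range of the gene, from 0 to 109 counts. Tlr2 fell between stages I and IV by 2.23 ± 0.90 on the log2 scale (adjusted p = 0.0339) and from stage III to IV by 2.35 ± 0.90 (adjusted p = 0.049). The first call was lost without isotype replicate 1 or 3 of stage I or any of the 3 stage IV libraries (adjusted p of 0.0503 to 0.112). The second was lost without any of 5 of its 6 libraries, and without replicate 3 of stage III, the highest, the difference was -0.92 (adjusted p = 0.492). It was also lost by limma-voom (-0.74, adjusted p = 0.667), without a filter (0.0614), with only the groups compared (0.126) and with a replicate block shared by both treatments (0.096) or within each (0.16).

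Under anti-IL5 Tlr2 had 2.84, 2.57 and 3.6 CPM at stage I, 2.93 and 3.14 at stage II, 1.37, 2.69 and 2.4 at stage III, and 1.43, 2.05 and 4.31 at stage IV. No stage step was called. At stage IV the 3 anti-IL5 libraries lay above the 3 isotype libraries, by 1.38 ± 0.90 on the log2 scale (adjusted p = 0.73). The interaction of stage and antibody did not pass the test for Tlr2 (adjusted p = 0.754), so the fall in isotype libraries and its lack of a call under anti-IL5 are not shown to differ.

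The endosomal receptors other than Tlr13, and Tlr5, did not pass the filter on low counts and have no test. Tlr3 had 0 counts in all 22 libraries. Tlr9 had 5 counts in all, 4 of them in isotype replicate 1 of stage II and 1 in isotype replicate 3 of stage I. Tlr8 had 17 counts over 4 libraries and Tlr5, the flagellin receptor, 19 over 4 libraries, with at most 7 and 9 in a library. At stage IV, Tlr5, Tlr8 and Tlr9 had 0 counts in all 6 libraries. A count of 0 allows up to 3 counts, so lower levels were not detectable at this depth. Markers of plasmacytoid dendritic cells, which are known for Tlr7 and Tlr9, summed to 44.4 to 168 CPM over 8 genes, with Klk1 at 0 in all 8 groups, and 4 of the 8 genes, Siglech and Cox6a2 among them, at 0 in stage III isotype libraries.

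Tlr7, a receptor for single-stranded RNA, had 39 counts in 5 libraries, and 30 of them fell in stage III under anti-IL5. The 3 anti-IL5 libraries of stage III held 9, 8 and 13 counts, or 0.882, 0.769 and 1.16 CPM, and the 3 isotype libraries of that stage held 0. The other 9 counts were 8 in isotype replicate 3 of stage I and 1 in anti-IL5 replicate 3 of stage IV. When every gene with at least 1 count was tested (16619 genes), the stage III difference had an unadjusted p of 0.00869 and an adjusted p of 0.114 (edgeR), which did not pass. The plasmacytoid markers at stage III summed to 49.1 to 149 CPM in isotype libraries and 64.5 to 79.1 CPM under anti-IL5, which overlap. Of 4 tested, 0 were called (6.37% of all genes). Bst2 had a median of 60.3 CPM over all libraries, and no other of the 8 genes passed 23.1. Siglech and Cox6a2 were at 0 in stage III isotype libraries and not at 0 under anti-IL5, with at most 2.49 and 0.821 CPM in any library of any stage. Klk1 and Pacsin1 were at 0 in both stage III groups. The part of such cells in the Tlr7 counts was not tested.

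Of the Toll genes outside the set, Tlr11 had 0 counts throughout and Tlr12 was present in all 22 libraries, with 1.41 ± 0.357 CPM per kb at stage I and 1.87 ± 0.628 at stage IV in isotype libraries (SD, n = 3 each). Tlr12, which binds protozoan profilin, was called higher from stage I to IV under anti-IL5 (0.97 ± 0.42, adjusted p = 0.0493) and not in isotype libraries (0.42 ± 0.43, adjusted p = 0.401), and the interaction did not pass (adjusted p = 0.463).

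Most of the tested adaptors that carry the receptors' signal rose along maturation. Between stages I and IV, 4 of 5 adaptors tested (of 6 listed) were higher and 1 lower in isotype libraries, with a median log2 fold change of 1.39 beside -0.04 over all genes, and 3 were higher and 1 lower under anti-IL5. Over all genes tested, 66.2% were called in isotype libraries (32.3% higher and 33.9% lower) and 63.5% under anti-IL5 (30.7% and 32.8%), and the counts of the lists that follow stand beside these shares. Myd88, the adaptor of all members here except Tlr3, had 54.6, 62.4 and 57.4 CPM at stage I and 346, 379 and 371 at stage IV in isotype libraries. It rose by 2.65 ± 0.20 on the log2 scale (adjusted p = 1.75e-10), and by 2.16 ± 0.20 under anti-IL5 (adjusted p = 3.94e-09). Tirap, which brings MyD88 to TLR2 and TLR4, rose by 1.39 ± 0.18 in isotype libraries, and Pik3ap1 (BCAP) by 1.62 ± 0.18. Ticam2, which links TLR4 to the adaptor TRIF, fell by 1.18 ± 0.51 in isotype libraries (adjusted p = 0.0486) and by 2.47 ± 0.55 under anti-IL5 (adjusted p = 0.000531). No adaptor was called between the antibodies at any stage.

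Downstream kinases, TRAF proteins and interferon regulatory factors showed the same direction, with 11 of 17 higher and 1 lower from stage I to IV in isotype libraries, and likewise 11 and 1 under anti-IL5 (median log2 fold change 1.11 and 0.96), beside 66.2% and 63.5% of all genes called. Irf5, a transcription factor activated through MyD88, rose by 5.92 ± 0.42 on the log2 scale in isotype libraries (adjusted p = 7.04e-11), from 1.46 to 4.88 CPM at stage I to 153 to 199 CPM at stage IV. Irf7 rose by 2.33 ± 0.68 and Irak4, the first kinase of the MyD88 complex, by 1.77 ± 0.19. Ikbke, a kinase of the interferon branch, fell by 3.24 ± 0.45 (adjusted p = 1.47e-06). None of the 17 was called between the antibodies at a single stage, by edgeR at an adjusted p under 0.05. Averaged over the stages, Irf5 (0.67 ± 0.19) and Ikbkb (0.24 ± 0.08) were called higher under anti-IL5 and 0 were lower. Over all genes 8.6% were called higher and 10.3% lower in this comparison.

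Genes of receptor traffic and processing were called about as often as all genes (66.2% and 63.5%), with 5 of 14 tested (of 15 listed) higher and 4 lower from stage I to IV under either antibody (median log2 fold change 0.19 and 0.11). Unc93b1, the chaperone that endosomal receptors need, rose by 1.30 ± 0.23 on the log2 scale in isotype libraries (adjusted p = 3.95e-05) and by 1.56 ± 0.23 under anti-IL5 (adjusted p = 4.88e-06). Lgmn, a protease that can cleave endosomal receptors, rose by 4.06 ± 0.61 in isotype libraries. Hsp90b1, the folding chaperone of most Toll-like receptors (gp96), fell by 1.82 ± 0.17 (adjusted p = 3.22e-09), and Lrrc59 fell by 1.88 ± 0.17. Hsp90b1 was also lower under anti-IL5 at stages I, II and III, by -0.60 ± 0.16 (adjusted p = 0.0362), -0.88 ± 0.20 (0.024) and -0.85 ± 0.16 (0.00288).

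Among co-receptors and ligand-handling genes, 2 of 5 tested (of 6 listed) were higher and 1 lower from stage I to IV under either antibody (median log2 fold change -1.13 in isotype and 0.62 in anti-IL5 libraries), a share near the 66.2% and 63.5% of all genes called. Ly96, which encodes the TLR4 partner MD-2, had 3.47, 2.81 and 4.9 CPM at stage I and 14.7, 9.47 and 13 at stage IV in isotype libraries, a rise of 1.73 ± 0.29 on the log2 scale (adjusted p = 1.96e-05). Under anti-IL5 it had 3.2, 4 and 5.35 CPM at stage I and 30.3, 22.2 and 20.3 at stage IV, a rise of 2.53 ± 0.29 (adjusted p = 1.59e-07). Lbp, the lipopolysaccharide-binding protein, fell by 4.65 ± 0.23 in isotype libraries, and at stage IV it was higher under anti-IL5 by 1.39 ± 0.22 (adjusted p = 0.00159).

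Negative regulators of the pathway were mostly higher at stage IV than at stage I, with 9 of 11 higher and 1 lower in isotype libraries and 8 and 1 under anti-IL5 (median log2 fold change 1.43 and 1.26), beside 32.3% and 30.7% of all genes called higher. Zc3h12a, an RNase that degrades cytokine transcripts, rose by 2.59 ± 0.50 on the log2 scale and Tnfaip3 (A20) by 2.17 ± 0.46 in isotype libraries. Socs1, an inhibitor of cytokine and Toll signals, was lower under anti-IL5 at stages I, III and IV, by -1.88 ± 0.30 (adjusted p = 0.000791), -1.85 ± 0.30 (0.000827) and -1.76 ± 0.29 (0.00211). Its stage IV libraries had 88.6, 108 and 108 CPM with the isotype and 37.6, 27.5 and 24.8 under anti-IL5, without overlap.

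Of the genes that Toll signals induce, 9 of 14 listed were tested, and 5 were higher and 1 lower at stage IV than at stage I in isotype libraries (median log2 fold change 2.04), and 4 and 2 under anti-IL5 (median 1.30), a share near the 66.2% and 63.5% of all genes called. The chemokine gene Cxcl2 rose by 5.54 in isotype libraries, where its stage IV libraries ran from 14.2 to 271 CPM, and Ccl3 rose by 4.40. Il6 rose by 2.04 ± 0.37 on the log2 scale in isotype libraries (adjusted p = 4.77e-05) and by 3.36 ± 0.39 under anti-IL5 (adjusted p = 1.81e-07). Tnf had 11, 7.39 and 11.9 CPM at stage I in isotype libraries and 32.1, 28 and 23.8 under anti-IL5, a difference of 1.47 ± 0.37 (adjusted p = 0.0253). Tnf fell from stage I to IV by 2.17 ± 0.38 under anti-IL5 (adjusted p = 3.85e-05).

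**Figure D4:**
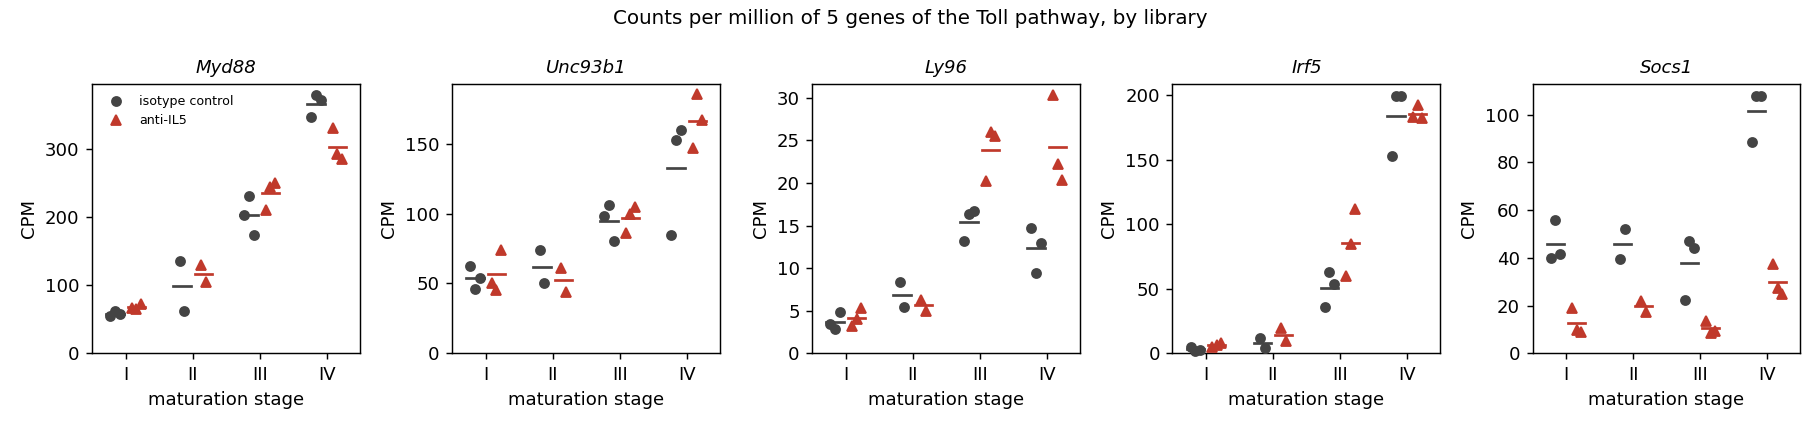
CPM (y axis, own scale in each panel) of Myd88, Unc93b1, Ly96, Irf5 and Socs1 by maturation stage (x axis), with circles for isotype libraries, triangles for anti-IL5 libraries and short lines for group means. Myd88 climbs from 54.6 to 72.7 CPM at stage I to 285 to 379 CPM at stage IV, and Socs1 at stage IV is 24.8 to 37.6 CPM under anti-IL5 against 88.6 to 108 CPM.

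Across all 22 libraries the 3 rising receptors followed each other. Pearson's r of log2 CPM was 0.849 between Tlr6 and Tlr13, 0.767 between Tlr4 and Tlr13 and 0.701 between Tlr4 and Tlr6, while Tlr1 gave -0.574 with Tlr13. The libraries share their stage, so these values describe the common course along maturation. Of the 9167 tested genes that averaged 5 CPM or more, the ones most like Tlr13 by the same measure were Slc25a45 (0.964), Arhgap30 (0.964) and Cabin1 (0.959). Those most like Tlr4 were Rfx7 (0.955), Manba (0.94) and Med15 (0.931), and those most like Tlr6 were Tmem63a (0.914), Rragc (0.912) and Fgd6 (0.91). Tlr1 and Tlr2 had no gene above 0.762 and 0.707.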

How the data were processed

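RNA of sorted marrow eosinophils became full-length cDNA libraries (17 amplification cycles) without strand marking or named molecular barcodes, per the labels' protocols. Reads from overlapping or antisense genes therefore cannot be told apart. The submitters' processing notes list STAR 2.6.1a, mm10 and DESeq2, the last with no stated role or version. How reads were counted, and on which annotation, is not stated. The deposited values are raw counts per gene symbol. Entries for reads with no feature (12.7% to 22.1%) or an ambiguous one (1.86% to 2.39%) were left out.

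From these counts, edgeR 4.0.16 (TMM, filterByExpr, robust quasi-likelihood) fitted all 22 libraries as 8 groups of stage and antibody, with Benjamini-Hochberg adjustment over the 12387 genes kept. The fit was also run on counts simulated with a single fixed dispersion and even means across groups, apart from the planted changes. That setting does not cover genes at or near 0 in a whole group. A gene at 0 in a whole group has its fold given against 3 counts set over that group. The lower end of an exact 95% Poisson interval of the counts stands beside it. CPM per kb used GENCODE M21 exon lengths. Of each pathway list, at most 4 called genes per comparison were named, by size of change, with a mean of at least 5 CPM. The receptors and lists were chosen with earlier results of these data known. Alternatives were other scalings and filters, limma 3.58.1, DESeq2 1.42.0, only the groups compared, a replicate block and leaving out each library.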

Additional observations from a re-analysis of the deposited data

Results flagged for a closer look

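For Tlr1, a difference of the anti-IL5 effect between stages was called in the main fit, on few counts, and was lost in several other fits. The change of the effect from stage III to stage IV had an adjusted p of 0.016 (edgeR), and the interaction over all 4 stages had an adjusted p of 0.046. By limma-voom (adjusted p = 0.083) and with only the groups compared, the change from stage III to IV was not called. With a replicate block, shared or within each treatment, the interaction was no longer called, while the change from stage III to IV was (0.0227 and 0.0238). Without 1 library, the interaction call held for isotype replicate 1 of stage I, replicate 1 or 2 of stage II or replicate 2 of stage III and for anti-IL5 replicate 2 of stage IV, and was lost for each other library. At stage III Tlr1 had 0 counts in 3 of 3 anti-IL5 libraries and 7, 5 and 19 in the isotype libraries, and at stage IV it had 20, 3 and 17 counts under anti-IL5 and 3, 3 and 1 with the isotype. Sequence shared with Tlr6, and the lower basophil and mast cell markers at stage III, are given above, and their part in the result was not tested.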

How the results depend on the processing

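Results were recomputed with 3 other scalings, 2 other filters, limma-voom, DESeq2, only the groups compared, a replicate block and each library left out. The number of receptors called in a comparison moved by over 1.5 times as follows. Without a filter it was 0 for the antibodies at stage II and 1 for stage IV against III under anti-IL5. Limma-voom gave 0 for the antibodies at stage II and 0 for the change of effect from stage III to IV. DESeq2 gave 0 for stage II against I under anti-IL5 and 2 for the interaction (Tlr1 and Tlr13). Gene totals alone gave 2 for stage III against II under anti-IL5. With only the groups compared it was 0 for the antibodies at stages II and III (there Tlr1 was not tested), for stage II against I under anti-IL5 and for the change of effect from stage III to IV, and 2 for stage III against II under anti-IL5. The mean over stages I, III and IV, chosen after seeing the data, gave 0. With libraries left out the number was 0 in each case for the antibodies at stage II, 0 to 1 at stage III, and 1 to 2 for the mean over stages, where Tlr1 joined. It was 1 to 2 for stage III against II with the isotype, and under anti-IL5 0 to 1 for stage II against I, 2 to 4 for stage III against II and 1 to 2 for stage IV against III. For the interaction it was 0 to 1. Tlr4 at stage II against I under anti-IL5 changed sign, at 0.26 on the log2 scale without replicate 1 of stage II, and was -4.72 without replicate 2.

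With a replicate block, shared by both treatments or within each, the interaction called 0 receptors. For the next values, each gene's mean log2 CPM in a group was first taken off, so they compare what is left within groups. On this measure libraries of one number correlated at 0.0229 to 0.208 between stages (median 0.112) and 0.0127 to 0.338 between antibodies (median 0.0531). Libraries of different numbers had medians of -0.0489 and -0.0323, and taking off a group mean by itself ties the values of a group to each other with opposite signs. Of the 22, 21 correlated best with their own number, a hint from the data and not the design. Not every pair passed 0.1, so the numbers were not used as pairs over all groups. Stages III and IV of the isotype did pass in all 3 pairs (0.124 to 0.208), and there the block ended the call of Tlr2 and kept those of Tlr4 and Tlr13. Between the antibodies at stage II the value was 0.338. With 2 libraries per group, the second pair there equals the first by arithmetic and adds nothing. Between stages I and II under anti-IL5 both pairs passed (0.16 and 0.133). In both comparisons the block shared by both treatments kept the calls of Tlr13. Counts of all genes called also moved by over 1.5 times: 184 to 1123 at stage I between the antibodies (548 as reported), 1 to 467 at stage II (217) and 68 to 257 at stage IV (130). At stage III (789) it was 1285 with DESeq2, 340 without isotype replicate 3 and lower still without anti-IL5 replicate 3. The same held for stage II against I, with 386 to 1682 (1319) in isotype and 509 to 1972 (1539) in anti-IL5 libraries, and for stage III against II in isotype libraries, with 2951 to 4955 (4591). It also held for the change of effect from stage I to III, 10 to 247 (49), and III to IV, 17 to 255 (79), and for the interaction, 50 to 503 (133). Groups of 2 and 3 libraries, and at most 41 counts of Tlr1 per library, limit what could be detected.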
